A study of Mus musculus with 6 samples.

Results

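Fast-twitch skeletal muscle fibres were represented by 10 genes in RNA of the mouse mammary gland. They were Myh4, Mylpf, Acta1, Tnnt3, Tnni2, Tnnc2, Atp2a1, Pvalb, Pygm and Ckm. Every probe set whose platform annotation names exactly 1 gene, that gene being on this list, was taken, which gave 16 of the 12488 probe sets on the array. The thoracic mammary glands came from virgin mice with a transgene that overexpresses luteinizing hormone (LH), by which the pituitary drives the gonads, and from virgin wild type mice. All mice were F1 animals of CF-1 and FVB parentage, aged 16 weeks. There were 3 Affymetrix arrays per group, hybridised with RNA from pools of 3 mice, so that 9 LH transgenic and 9 wild type mice were used. An array therefore gives a mean over 3 mice, and single animals cannot be seen. For the LH transgene, promoter and founder line were not given in the sources used here.

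Fast-twitch fibres contract quickly and draw much of their energy from glycogen. In these fibres a nerve impulse releases calcium from the sarcoplasmic reticulum, calcium binds the troponin complex on the thin filament, and the myosin heads of the thick filament then pull on actin. A calcium pump and a soluble calcium buffer end the contraction. Muscle is not a cell type of the mammary gland itself, and the thoracic glands of the mouse lie against muscles of the chest wall. How muscle was parted from the glands is not given in the sources used here.

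The mammary label was checked against marker genes. The casein gene Csn2 had signals of 72221 to 77096 in LH transgenic and 35120 to 47379 in wild type pools, and the fat cell gene Adipoq 29045 to 31601 in LH transgenic and 46545 to 51614 in wild type pools. The array means, trimmed by 2% at each end over all probe sets but the controls, lay between 1491.2 and 1493.9. LH transgenic pool 3 stood apart from LH transgenic pools 1 and 2 in its muscle genes, and the fast-fibre results are therefore given with and without it.

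The promoters of 4 members are printed as background. Whether promoter sequence has a part in the fast-fibre results was not tested. The 4 are Myh4, Acta1 and Atp2a1, for the motor, its track and the calcium pump, and Pvalb, whose brighter probe set had the least different wild type values. The 250 bases before the transcription start are shown 5′ to 3′ on the strand of the gene, from RefSeq on GRCm38.p6. Capitals mark TATAAA on the strand of the gene and, on both strands, the full binding motifs of MEF2 and of serum response factor (the CArG box), which are regulators of muscle genes.
Myh4, chr11:67237562-67237811, plus strand: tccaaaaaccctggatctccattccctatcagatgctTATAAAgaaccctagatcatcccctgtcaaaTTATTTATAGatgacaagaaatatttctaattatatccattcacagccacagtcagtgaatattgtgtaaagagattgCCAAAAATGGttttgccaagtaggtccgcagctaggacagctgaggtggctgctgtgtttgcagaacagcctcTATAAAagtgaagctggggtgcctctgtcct
Atp2a1, chr7:126463074-126463323, minus strand: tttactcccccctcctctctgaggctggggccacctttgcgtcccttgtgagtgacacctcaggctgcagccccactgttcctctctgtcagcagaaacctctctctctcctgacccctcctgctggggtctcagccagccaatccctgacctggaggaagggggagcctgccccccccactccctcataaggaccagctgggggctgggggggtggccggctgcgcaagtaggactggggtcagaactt
Acta1, chr8:123894776-123895025, minus strand: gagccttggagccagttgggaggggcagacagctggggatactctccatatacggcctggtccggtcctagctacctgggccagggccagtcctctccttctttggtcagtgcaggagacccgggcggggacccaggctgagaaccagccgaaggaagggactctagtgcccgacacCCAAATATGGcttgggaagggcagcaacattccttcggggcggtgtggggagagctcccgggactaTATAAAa
Pvalb, chr15:78206401-78206650, minus strand: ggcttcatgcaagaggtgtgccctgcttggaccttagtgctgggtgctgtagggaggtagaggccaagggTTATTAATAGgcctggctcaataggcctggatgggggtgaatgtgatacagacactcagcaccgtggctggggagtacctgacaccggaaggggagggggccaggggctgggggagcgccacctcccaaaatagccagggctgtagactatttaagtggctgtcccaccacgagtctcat

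RefSeq promoters were found for 8 of the 10 genes. The MEF2 motif was present in Myh4 and Pvalb, that is in 2 of 8, against 2.92% of 32851 mouse promoter windows of the same length. The CArG box was found in Myh4 and Acta1 (2 of 8, against 1.47%), and TATAAA in the same 2 genes (against 7.59%). The E-box CANNTG, bound by factors such as MyoD, was in 7 of 8 (66.2% of all), read on both strands, and CATTCC, bound by TEAD factors, in Myh4 and Acta1 (12.6% of all). The Atp2a1 window held 1 E-box and none of the other motifs. The marked matches did not overlap each other. A match is a run of letters and not a measured site. On the mouse genome 5 of the 10 genes lie on chromosome 7 (Ckm, Atp2a1, Mylpf, Tnni2 and Tnnt3), and Tnni2 and Tnnt3 have 1 protein-coding gene, Lsp1, between them.

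The question was what distinguishes glands of LH-overexpressing from those of wild type mice. In LH transgenic pools 1 and 2 the fast-fibre genes had a small part of the wild type signal, and in LH transgenic pool 3 most of it. Over the 12 fast-fibre probe sets bright enough to be tested, the median signal was 16.7% of the wild type mean in LH transgenic pool 1, 23.7% in pool 2 and 92.6% in pool 3. The wild type pools themselves had medians of 101%, 108% and 92.6%. All 12 probe sets lay below every wild type array in LH transgenic pools 1 and 2. Pool 3 of that group was below every wild type array for 6 of them and above every wild type array for 3 (Tnnc2, Ckm and the dimmer Pvalb probe set). LH transgenic pool 1 had the lowest value of all 6 arrays for 11 of 12, with Myh4, lowest in pool 2, as the exception.

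**Figure D1:**
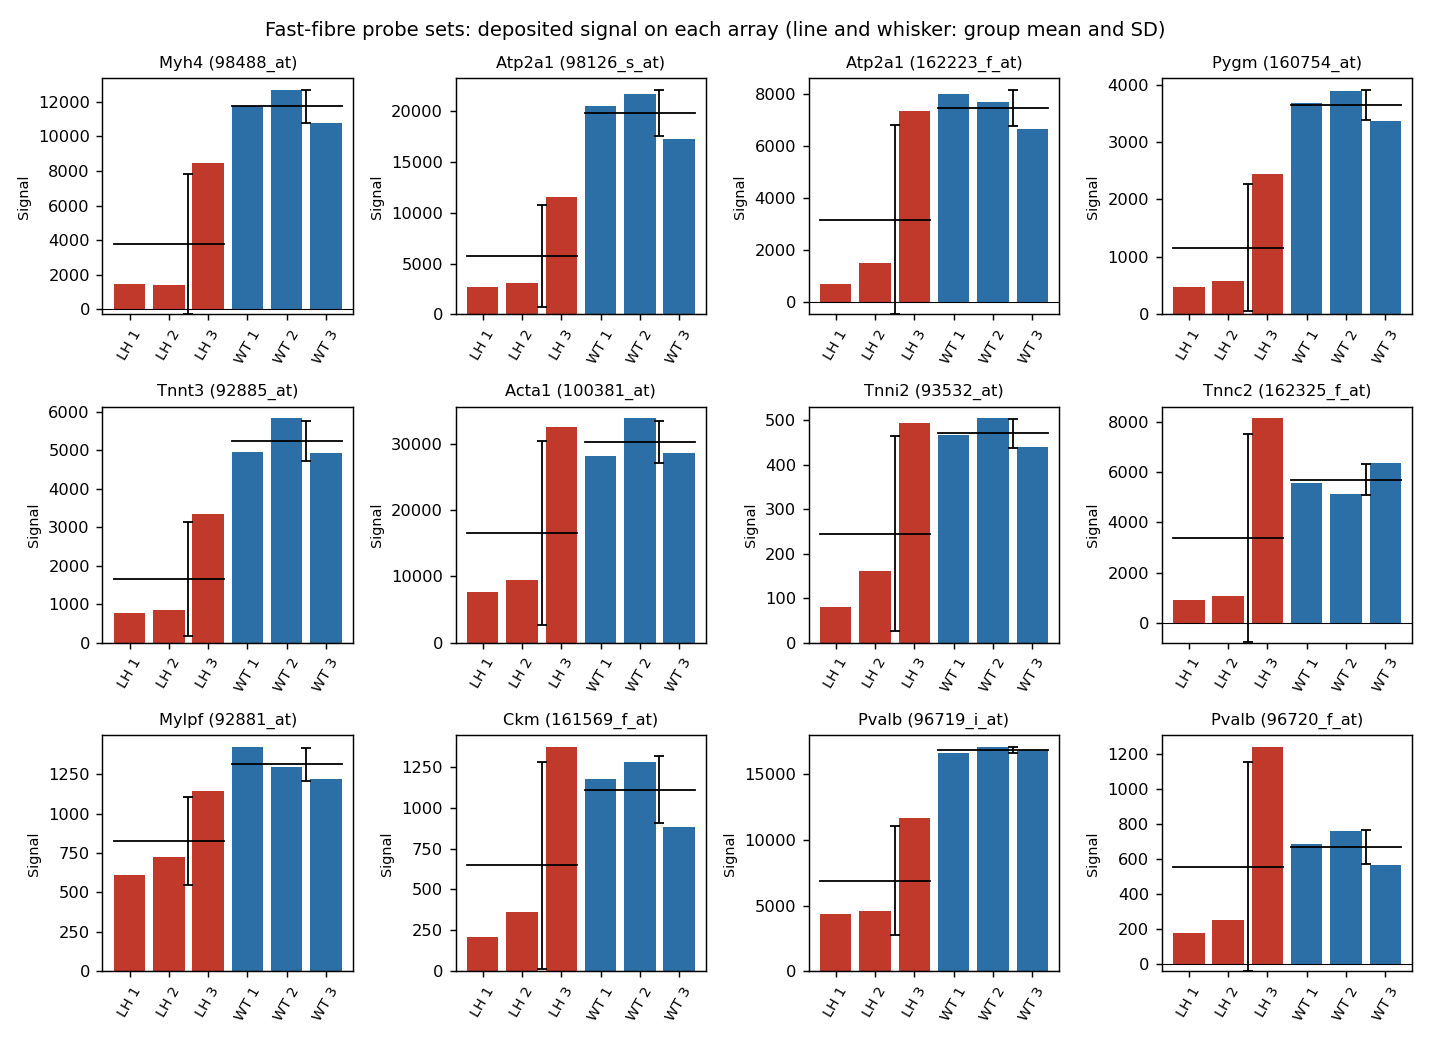
Deposited signal (linear scale, arbitrary units) of the 12 tested fast-fibre probe sets on each of the 6 arrays, LH transgenic pools (LH, red) left of wild type pools (WT, blue). Lines and whiskers are the mean and SD of the 3 arrays of a group. Pools LH 1 and LH 2 lie below all wild type bars in every panel, while LH 3 lies below all of them in 6 panels and above all of them in 3.

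Differences were tested with limma on log2(signal + 79.7), the added 79.7 being the 20th percentile over the whole value table. A probe set entered when its signals averaged 336.0 or more over the 6 arrays, and p-values were adjusted by Benjamini-Hochberg over all 7453 of them. Every log2 difference is LH transgenic minus wild type, a change is called at an adjusted p under 0.05, and ± is the SD over the 3 arrays of a group. The fast-fibre genes called lower numbered 5 of 10 (Myh4, Atp2a1, Pygm, Tnnt3 and Pvalb), through 5 of the 12 tested probe sets, and none was called higher. Of all tested probe sets 10.8% were called lower and 10.5% higher. The median difference of the 12 probe sets was -1.44 (range -2.13 to -0.64), against 0.02 over all tested probe sets. The groups did not overlap, with LH transgenic lower, for 6 of 12 probe sets and for 19.8% of all. Tnni2 passed the brightness filter only through the wild type arrays, so these counts describe the list and support nothing by themselves. The limma fit also takes the same spread for both groups. The 12 probe sets spread far more among LH transgenic than among wild type arrays (median log2 SD of 1.17 against 0.14). Their adjusted p-values and intervals rest on that unmet assumption.

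The 5 calls depended on which pools entered. Without LH transgenic pool 3 all 12 probe sets were called lower (12% of all tested probe sets were then called lower), with a median of -2.16. That pool was singled out by these same values and was the highest of its group for all 12. Leaving it out therefore had to widen the differences of these 12 probe sets, here and for each fast-fibre gene below, and supports nothing by itself. Without LH transgenic pool 1 or 2 the calls numbered 2 and 3, with medians of -1.02 and -1.11, and without wild type pool 1, 2 or 3 they numbered 3, 4 and 3. Fewer muscle cells and less RNA per muscle cell cannot be told apart in such tissue RNA.

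The thick filament was represented by its motor and a light chain. Myh4 encodes myosin heavy chain IIb, the motor of the fastest fibres. Its probe set 98488_at had signals of 1493, 1384 and 8479 in LH transgenic pools 1, 2 and 3, against 11781, 12686 and 10756 in wild type pools 1, 2 and 3. Both low values were those of LH transgenic pools 1 and 2, pool 3 lay between them and the wild type arrays, and the groups did not overlap. The means were 3786 ± 4065 in LH transgenic and 11741 ± 965.8 in wild type pools (n = 3 each), and Myh4 fell (log2 -2.13, 95% interval -3.37 to -0.89, adjusted p = 0.0235 by limma). Its difference was -2.96 (adjusted p = 3.82e-05) without LH transgenic pool 3, -1.74 (adjusted p = 0.0904) without pool 1 and -1.68 (adjusted p = 0.0717) without pool 2. Without wild type pool 1, 2 or 3 the call was lost as well, at adjusted p of 0.0627, 0.057 and 0.0634.

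Mylpf encodes the regulatory light chain of fast myosin. Probe set 92881_at had 612.7, 722.3 and 1141 in LH transgenic pools 1, 2 and 3, against 1424, 1295 and 1219 in wild type pools 1, 2 and 3. The groups did not overlap, but the gap between LH transgenic pool 3 and the lowest wild type array was small. The difference missed the threshold (log2 -0.66, 95% interval -1.13 to -0.19, adjusted p = 0.0519 by limma). Without LH transgenic pool 3 it was -0.90 (adjusted p = 0.00592), without pool 1 -0.49 (adjusted p = 0.16) and without pool 2 -0.60 (adjusted p = 0.126). Mylpf had the smallest spread among LH transgenic arrays of the 12 probe sets, with an SD of 0.42 on the log2 scale.

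Acta1 encodes skeletal alpha-actin, the track on which the myosin heads pull. Its signals were 7688, 9406 and 32526 in LH transgenic pools 1, 2 and 3, against 28133, 33832 and 28606 in wild type pools 1, 2 and 3. The third LH transgenic pool lay inside the wild type range, and the other pools of that group far below it. With means of 16540 ± 13871 in LH transgenic and 30190 ± 3163 in wild type pools, the difference was not called (log2 -1.17, 95% interval -2.15 to -0.19, adjusted p = 0.0845 by limma). It was -1.81 (adjusted p = 0.000234) without LH transgenic pool 3, -0.78 (adjusted p = 0.262) without pool 1 and -0.92 (adjusted p = 0.224) without pool 2.

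The troponin complex makes the thin filament sensitive to calcium. Tnnt3, fast troponin T, holds the complex on tropomyosin, and its signals were 775.1, 848.1 and 3356 in LH transgenic pools 1, 2 and 3, against 4956, 5833 and 4926 in wild type pools 1, 2 and 3. In LH transgenic pool 3 the signal was 64.1% of the wild type mean, against 14.8% and 16.2% in pools 1 and 2, and the groups did not overlap. Tnnt3 fell (log2 -1.92, 95% interval -2.91 to -0.94, adjusted p = 0.0136 by limma), and its difference was -2.57 (adjusted p = 6.55e-05) without LH transgenic pool 3 and -1.57 (adjusted p = 0.0541) without pool 1. Tnni2, fast troponin I, blocks the motor at rest and was dim, with 80.7, 160.3 and 492.8 in LH transgenic pools 1, 2 and 3, against 467.0, 504.2 and 439.8 in wild type pools 1, 2 and 3. Its lowest value was close to the pseudocount, so that its difference is understated (log2 -0.97, 95% interval -1.88 to -0.06, adjusted p = 0.121 by limma). Tnnc2, fast troponin C, binds the calcium, and its probe set 162325_f_at had 920.6, 1059 and 8151 in LH transgenic pools 1, 2 and 3, against 5586, 5132 and 6359 in wild type pools 1, 2 and 3. Here LH transgenic pool 3 was the brightest of all 6 arrays, at 143% of the wild type mean, while pool 1 was the dimmest, at 16.2%. The difference of Tnnc2 was not called (log2 -1.45, 95% interval -2.91 to 0.01, adjusted p = 0.147 by limma), but was -2.43 (adjusted p = 7.5e-05) without LH transgenic pool 3, against -1.49 (adjusted p = 0.00679) for Tnni2. Without LH transgenic pool 1 and without pool 2 the Tnnc2 differences were -0.91 (adjusted p = 0.4005) and -1.00 (adjusted p = 0.355). Those of Tnni2 were -0.57 (adjusted p = 0.323) and -0.86 (adjusted p = 0.244).

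The neighbours Tnni2 and Tnnt3 had the same order of the LH transgenic pools, an order found in 11 of the 12 tested fast-fibre probe sets. They differed in pool 3. It lay inside the wild type range for Tnni2 and below it for Tnnt3.

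Atp2a1 encodes the fast-fibre calcium pump SERCA1, which returns calcium to the sarcoplasmic reticulum. Probe set 98126_s_at had 2656, 3061 and 11526 in LH transgenic pools 1, 2 and 3, against 20485, 21718 and 17292 in wild type pools 1, 2 and 3. LH transgenic pool 3 was about midway between the other LH transgenic pools and wild type, at 58.1% of the wild type mean. Atp2a1 fell on this probe set (log2 -2.10, 95% interval -3.10 to -1.09, adjusted p = 0.0104 by limma), and it was called as well without any single array, LH transgenic pool 3 included (log2 -2.76 (adjusted p = 5.8e-05)), and in each other setting tried. A second probe set, 162223_f_at, had 709.7, 1493 and 7328 in LH transgenic pools 1, 2 and 3, against 8005, 7698 and 6660 in wild type pools 1, 2 and 3. There LH transgenic pool 3 reached 98.3% of the wild type mean, inside the wild type range, and the difference was not called (log2 -1.84, 95% interval -3.26 to -0.42, adjusted p = 0.066 by limma). The letter f marks probe sets designed to match several members of a sequence family. The tested Tnnc2 and Ckm probe sets and the dimmer Pvalb probe set carry it too. The called probe sets of Atp2a1 and Pvalb carry the letters s and i. What else any of these probe sets matches was not tested.

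Pvalb encodes parvalbumin, a soluble calcium buffer that speeds relaxation and is also made by some neurons. Its brighter probe set, 96719_i_at, had 4385, 4630 and 11689 in LH transgenic pools 1, 2 and 3, against 16638, 17107 and 16852 in wild type pools 1, 2 and 3. The wild type arrays were nearly equal, with an SD of 0.02 on the log2 scale, and all LH transgenic pools lay below them. Pvalb fell on this probe set (log2 -1.43, 95% interval -2.13 to -0.73, adjusted p = 0.0113 by limma). It too was called without any single array and in each other setting tried, with differences between -2.02 and -1.19, and -1.89 (adjusted p = 7.5e-05) without LH transgenic pool 3. The dimmer probe set 96720_f_at disagreed in LH transgenic pool 3. It had 173.4, 249.5 and 1244 in LH transgenic pools 1, 2 and 3, against 685.5, 757.4 and 567.0 in wild type pools 1, 2 and 3, so that this pool reached 186% of the wild type mean, and its difference was not called (log2 -0.64, 95% interval -1.79 to 0.51, adjusted p = 0.417 by limma).

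For energy supply, Pygm, muscle glycogen phosphorylase, splits glucose units from glycogen. Its signals were 472.2, 579.4 and 2438 in LH transgenic pools 1, 2 and 3, against 3674, 3895 and 3366 in wild type pools 1, 2 and 3. LH transgenic pools 1 and 2 had 13% and 15.9% of the wild type mean and pool 3 had 66.9%, without overlap between the groups. Pygm fell (log2 -1.94, 95% interval -2.98 to -0.89, adjusted p = 0.0167 by limma), with -2.62 (adjusted p = 7.5e-05) without LH transgenic pool 3, -1.53 (adjusted p = 0.0613) without pool 1 and -1.66 (adjusted p = 0.0558) without pool 2. Without wild type pool 3 its adjusted p was 0.0508, and without wild type pool 1 it just missed the threshold as well. Ckm, the muscle creatine kinase that renews ATP from phosphocreatine, had 211.3, 360.5 and 1372 in LH transgenic pools 1, 2 and 3, against 1173, 1277 and 879.5 in wild type pools 1, 2 and 3 on probe set 161569_f_at. LH transgenic pool 3 was the brightest array, and the difference was not called (log2 -1.04, 95% interval -2.13 to 0.04, adjusted p = 0.159 by limma), but was -1.72 (adjusted p = 0.00256) without that pool. The Ckm difference was -0.56 (adjusted p = 0.435) without LH transgenic pool 1 and -0.86 (adjusted p = 0.324) without pool 2.

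**Figure D2:**
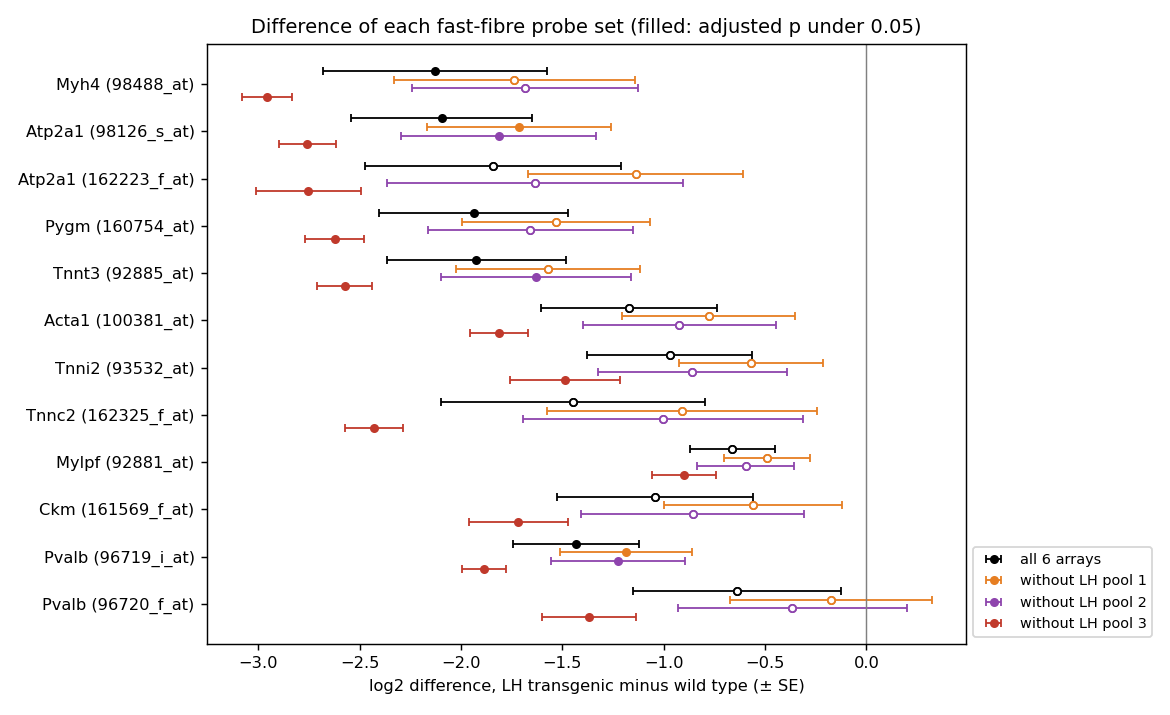
The log2 difference, LH transgenic minus wild type, of the 12 tested fast-fibre probe sets with all 6 arrays and without each LH transgenic pool in turn. Points are limma estimates, bars their SE, and filled points have an adjusted p under 0.05. With all arrays 5 points are filled, without LH transgenic pool 3 all 12 are, and without pool 1 or 2 the filled points number 2 and 3.

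The other 4 probe sets of these genes were too dim to be tested. Myh4 161545_r_at had 361.8, 340.1 and 304.7 in LH transgenic pools 1, 2 and 3, against 258.1, 199.3 and 333.6 in wild type pools 1, 2 and 3, and did not show the pattern of the bright Myh4 probe set. Tnnc2 93259_at had at most 85.6 on any array. Mylpf 162101_f_at had 9.9, 88.5 and 207.1 in LH transgenic pools 1, 2 and 3, against 164.0, 228.3 and 178.6 in wild type pools 1, 2 and 3, with the lowest values in LH transgenic pools 1 and 2. Ckm 160175_at had 163.0, 182.4 and 448.4 in LH transgenic pools 1, 2 and 3, against 310.4, 64.1 and 221.6 in wild type pools 1, 2 and 3, with overlapping groups. In a fit without the brightness filter none of the 4 was called, with differences of 0.29, 0.03, -0.72 and 0.33 in the same order.

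The spread among the LH transgenic arrays was wide for the fast-fibre genes. On the log2 scale the SD over the 3 LH transgenic arrays had a median of 1.17 over the 12 probe sets, against 0.14 over the 3 wild type arrays. Over all 7453 tested probe sets the median SD was 0.21 among LH transgenic and 0.16 among wild type arrays. The widest SD among LH transgenic arrays were those of Tnnc2 (1.70), Atp2a1 162223_f_at (1.65) and Myh4 (1.44), and only 0.0403%, 0.0537% and 0.134% of all tested probe sets had an SD at least as wide. For Mylpf that share was 10.7%. The members were chosen with earlier results of these data known, so these shares describe the list and support nothing by themselves.

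**Figure D3:**
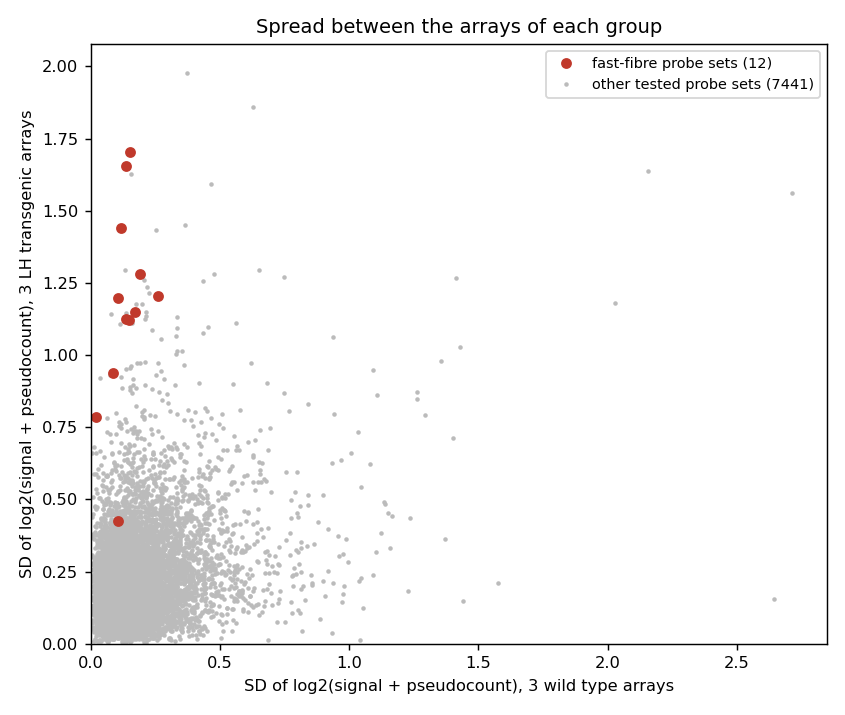
SD of log2(signal + 79.7) over the 3 LH transgenic arrays (vertical axis) against the SD over the 3 wild type arrays (horizontal axis) for the 7453 tested probe sets, fast-fibre probe sets in red. The red points lie at 0.42 to 1.70 on the vertical axis and at 0.02 to 0.26 on the horizontal axis.

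Among the 6 arrays it was LH transgenic pool 3 that stood out. Its signal was more than 2-fold above both other LH transgenic pools, on the log2(signal + 79.7) scale, for 11 of the 12 fast-fibre probe sets and for 0.564% of all tested probe sets (42 in number). No fast-fibre probe set stood that far above or below its group on any other array. LH transgenic pool 3 was singled out by these same values, so the counts describe it and support nothing by themselves. Of the 42 probe sets, 24 belonged to the fast-fibre genes or to 4 other lists of muscle genes described next, 16 to other single genes, and 2 to no single gene. Among the 16 were a pair of probe sets of Fhl1, a LIM protein of striated muscle, and that of Mstn, myostatin, which restrains muscle growth. Mstn was chosen for mention after its values were seen.

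Other genes of fast fibres were read from a list of 16, of which 13 had a probe set and 11 were tested, each by its brightest probe set. Of these 5 fell and none rose (median -1.00), where 11.6% of all 5731 genes tested so fell and 9.93% rose. Those shares are the background for the counts of each other list below. Myl1, the essential light chain of fast myosin, had 2479, 2647 and 9920 in LH transgenic pools, against 11161, 13941 and 12668 in wild type pools (log2 -1.62, adjusted p = 0.0265). Casq1, the calcium store protein calsequestrin, had 970.9, 1106 and 2693 in LH transgenic pools, against 4023, 4483 and 4730 in wild type pools (log2 -1.57, adjusted p = 0.00753). In both, LH transgenic pool 3 again stood between the other pools of its group and wild type. Actn3, the actinin of fast fibres, fell to 940.7 ± 650.0 in LH transgenic pools, against 2618 ± 488.4 in wild type pools (SD, n = 3 each, log2 -1.56, adjusted p = 0.0132 by limma). Pfkm, muscle phosphofructokinase, fell by 1.01 on the log2 scale. Gpd1, which fat cells also make, fell as well, but with its lowest value in LH transgenic pool 3. Myh1, myosin heavy chain IIx, was not called, with 267.1, 815.0 and 3054 in LH transgenic pools, against 1595, 2801 and 1548 in wild type pools (log2 -1.00, adjusted p = 0.297). Its highest value was that of LH transgenic pool 3. The number that fell was 9 of the 11 without LH transgenic pool 3, 3 without pool 1 and 4 without pool 2, and it was 3, 4 and 2 without wild type pool 1, 2 and 3. Myh2 and Myh8, the heavy chains of IIa and perinatal fibres, were dim, with highest signals of 29.2 and 120.6.

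Of 5 tested genes of calcium release and uptake 2 fell, 4 without LH transgenic pool 3 and 1 without any other single array. Besides Casq1 this was Ryr1, the release channel of the sarcoplasmic reticulum, with 157.8, 304.9 and 1014 in LH transgenic pools, against 1293, 1101 and 1502 in wild type pools (log2 -1.56, adjusted p = 0.0367). Its voltage sensor Cacna1s had 192.8, 292.4 and 672.2 in LH transgenic pools, against 795.2, 892.0 and 691.7 in wild type pools and missed the threshold (log2 -1.03, adjusted p = 0.0522). The pump of slow and non-muscle cells, Atp2a2, had 820.6, 729.1 and 1136 in LH transgenic pools, against 1053, 875.6 and 934.6 in wild type pools (log2 -0.10, adjusted p = 0.735), with overlapping groups. Of 9 genes of the sarcomere scaffold shared by fibre types 1 fell, which is near the share of all tested genes (11.6%). It was Cryab, a small heat shock protein (log2 -0.73, adjusted p = 0.0202). The count was 6 without LH transgenic pool 3, 1 without wild type pool 2 and 0 without any of the other 4 arrays. In this list Myom2 and Myom1 passed the brightness filter only through the wild type arrays.

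Where 11.6% of all tested genes fell, slow-fibre genes had 6 tested members, of which 1 fell. That was Cox6a2, a cytochrome oxidase subunit of striated muscle in general, with 645.4, 1244 and 3419 in LH transgenic pools, against 4357, 4571 and 3797 in wild type pools (log2 -1.52, adjusted p = 0.0379). Leaving out LH transgenic pool 3 gave 2, and leaving out any other single array gave 0. The fits with no brightness filter, with robust eBayes and with eBayes without a trend gave 0 as well. The other 6 slow-fibre genes with a probe set were below the brightness filter, and they differed in which array was brightest. Myh7, Myl2, Tnnc1 and Myl3 had their highest signals, 488.5, 424.8, 246.9 and 75.5, in LH transgenic pool 2, which was low in fast-fibre genes. Tnnt1, slow troponin T, had 266.1, 368.8 and 330.0 in LH transgenic pools and 380.0, 366.1 and 238.7 in wild type pools, and its highest value was that of wild type pool 1. Cox7a1, a cytochrome oxidase subunit, had 121.2, 249.9 and 379.2 in LH transgenic pools and 172.0, 367.6 and 475.0 in wild type pools, and was highest in wild type pool 3.

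**Figure D4:**
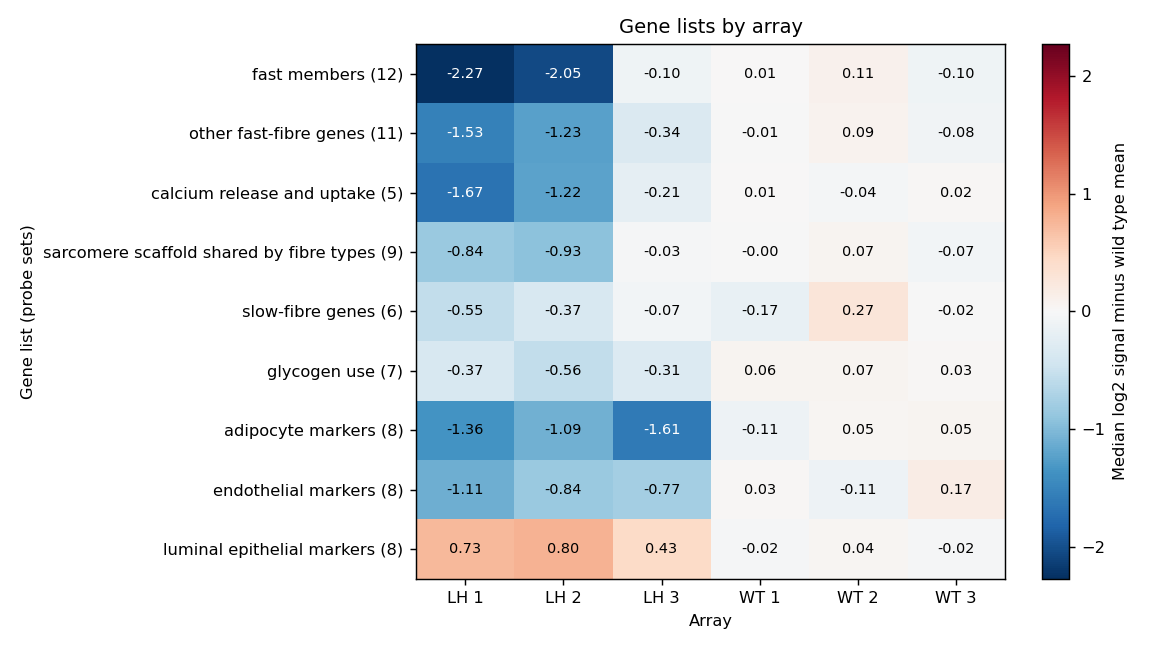
Median log2(signal + 79.7) minus the wild type mean for 9 gene lists (rows, with the number of tested probe sets) on the 6 arrays, LH transgenic pools (LH) left of wild type pools (WT). For the fast-fibre genes the medians are -2.27, -2.05 and -0.10 in LH 1, LH 2 and LH 3, while the adipocyte list has -1.36, -1.09 and -1.61.

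Glycogen genes other than Pygm gave a different picture among the LH transgenic pools. Of 7 tested genes 3 fell, and the count was also 3 without any single array. Gbe1, the glycogen branching enzyme, had 653.7, 355.4 and 562.6 in LH transgenic pools, against 1398, 1332 and 1516 in wild type pools (log2 -1.34, adjusted p = 0.00227). Pgm1, phosphoglucomutase, and Gys1, the glycogen synthase of muscle and other tissues, fell by 1.01 and 0.98 on the log2 scale. In these 3 genes LH transgenic pool 3 was close to the other LH transgenic pools, unlike in Pygm, and 0 of the 7 had LH transgenic pool 3 more than 2-fold above both others. Pygb, the phosphorylase of brain, had 1948, 2259 and 1996 in LH transgenic pools, against 2318, 2746 and 2427 in wild type pools (log2 -0.26, adjusted p = 0.198).

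The non-muscle and smooth muscle relatives of the fast-fibre genes did not share their pattern either: 0 of 9 tested had LH transgenic pool 3 more than 2-fold above both others. Actg1, cytoplasmic gamma-actin, rose (log2 0.47, adjusted p = 0.0134), as did Acta2, smooth muscle actin (log2 0.66, adjusted p = 0.0112). On a scale set by bacterial hybridisation controls, which lowers LH transgenic against wild type values, none of the 9 was called higher and 6 were called lower. On that scale 3408 of all 7453 tested probe sets were called lower. Atp2a3, a calcium pump of non-muscle cells, fell (log2 -0.87, adjusted p = 0.0388). The brightest tested probe set of Actb, cytoplasmic beta-actin, fell by 2.66 (adjusted p = 0.0042), while another gave 0.33 (adjusted p = 0.645), so the probe sets of Actb disagree. Ckb, the brain creatine kinase, had 2636, 2143 and 1671 in LH transgenic pools, against 2430, 2713 and 2441 in wild type pools (log2 -0.25, adjusted p = 0.34). Myh9, a non-muscle myosin heavy chain, had a difference of 0.06 (adjusted p = 0.841). Without LH transgenic pool 3, wild type pool 2 or wild type pool 3 the count of these relatives called lower was 1, and without LH transgenic pool 1 the count called higher was 1.

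Of 7 tested transcription factors and synapse genes of muscle none fell (11.6% of all tested genes did) and 1 rose (9.93% did). This was Chrne, an acetylcholine receptor subunit, on 1 probe set (log2 1.27, adjusted p = 0.024), with 1511, 1483 and 1290 in LH transgenic pools, against 347.8, 399.5 and 1100 in wild type pools. No gene of this list was called higher without LH transgenic pool 1, LH transgenic pool 2 or wild type pool 2, or with no brightness filter. On the scale of the bacterial controls 3 were called lower and 1 higher, where 3408 of all 7453 tested probe sets were called lower. The myogenic factor Myod1 had 602.3, 740.0 and 458.8 in LH transgenic pools, against 484.0, 439.9 and 466.4 in wild type pools (log2 0.30, adjusted p = 0.317). Myf5, Myf6, Myog and Pax3 were below the brightness filter, as was Mef2c, and Mef2a and Mef2d were not called (adjusted p = 0.53 and 0.292).

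The genes most like the fast-fibre genes were looked for by Pearson correlation, over the 6 arrays, with their median profile. Candidates were 190 other genes whose log2 values spanned at least 2. The 10 with the highest r (0.957 to 0.996) were Fhl1, Myl1, Pgam2, Ryr1, Cox6a2, Myom2, Casq1, Actn3, Ckmt2 and Entpd5. Fhl1 had 1235, 1868 and 5710 in LH transgenic pools, against 5789, 6668 and 6593 in wild type pools. Entpd5, an enzyme that splits nucleoside diphosphates, had 94.3, 87.1 and 362.3 in LH transgenic pools, against 455.9, 748.1 and 500.0 in wild type pools. Entpd5 and Myom2 passed the brightness filter only through the wild type arrays. The fast-fibre probe sets correlated with the median of the others at 0.895 (Pvalb 96720_f_at) to 0.991. All these values share the same 6 arrays and describe them.

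Markers of other cells moved between the groups in these arrays, where 11.6% of all tested genes fell and 9.93% rose. The summed signal of 8 adipocyte markers was 81802, 81316 and 68091 in LH transgenic pools, against 153450, 169542 and 182297 in wild type pools, and 7 of the 8 fell. That of 8 endothelial markers was 12987 to 15797 in LH transgenic pools, against 27414 to 33027 in wild type pools, and 6 of 8 fell. That of 8 luminal epithelial markers was 254840 to 296549 in LH transgenic pools, against 114976 to 172695 in wild type pools, and 5 of 8 rose (2, with 1 lower, on the scale of the bacterial controls). None of these lists had a gene with LH transgenic pool 3 more than 2-fold above both other LH transgenic pools. By contrast the summed signal of the 10 fast-fibre genes, each by its brightest probe set, was 19295, 22212 and 81171 in LH transgenic pools, against 94317, 103280 and 90694 in wild type pools. Of 7 heart muscle genes 5 were below the brightness filter, with highest signals of 55.3 (Myl7), 159.1 (Myh6), 212.8 (Tnnt2), 240.6 (Nppb) and 316.8 (Tnni3). The others were brighter and were not called: cardiac actin Actc1, on a probe set of the f type, had 2956, 2807 and 4013 in LH transgenic pools, against 2183, 3184 and 3680 in wild type pools, and the hormone gene Nppa had 755.0, 1141 and 915.9 in LH transgenic pools, against 751.1, 530.5 and 818.1 in wild type pools. The part of the fat, vessel and epithelial levels, or of muscle tissue taken with the glands, in the fast-fibre results was not tested.

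Since the deposited arrays have nearly equal means, another scale was set from 9 bacterial hybridisation control probe sets, whose mean was 13470 to 16993 on LH transgenic and 9069 to 11804 on wild type arrays. On that scale the median of all tested probe sets was -0.53, and 3408 of 7453 tested probe sets were called lower. These were 95.1% of 3584 calls, against 50.8% of 1586 calls on the deposited scale. All 12 fast-fibre probe sets were then called lower, with a median of -2.02, which is below the median of all probe sets there too. In that fit the SE was smaller than on the deposited scale for all of them but Mylpf (0.256 against 0.553 for Myh4). The calls there therefore do not follow from the scale alone, and why the SE changed was not tested.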

How the data were processed

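RNA of 6 pools of mammary glands (3 LH transgenic, 3 wild type) was measured on single-colour Affymetrix mouse arrays. Per the labels' protocols, an oligo-dT primer started the cDNA, from which cRNA carrying biotin was made. The authors deposited linear signal intensities, 1 for each probe set and array, from MAS5 per the submitters' processing notes, and these values were used as deposited. For MAS5, neither the version, the detection calls nor a genome build were stated in the labels. Groups came from the source name, and pool numbers are names only. Different mice went into each pool.

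By the platform annotation 10833 probe sets had a single gene (8251 genes in all), 396 had several and 1193 had none, and 66 were controls, which were not tested. The difference was tested with limma (lmFit, eBayes with a trend, two-sided, no covariates) on log2(signal + 79.7) for the 7453 probe sets at or above the 40th percentile of mean signal, and the threshold was 0.05 after Benjamini-Hochberg adjustment. Other lists used the brightest tested probe set of each gene with the same p-values. Named from each list were up to 4 called genes by size, or 2 by p where none was called. Others named are listed members shown for contrast, and these, with Mstn, were picked with their values already seen. The members and lists were chosen with earlier results of these data known. The brown fat, nerve, smooth muscle, epidermis and heart lists are given in the closing observations. The fit was tested on simulated data in which both groups had the same spread. The fast-fibre probe sets did not, so that test does not cover them. Other settings were quantile normalization, median centring, bacterial control scaling, no pseudocount with a floor of 16.8, a pseudocount of 324.3, no filter, a filter at a mean of 933.0, eBayes without a trend, robust eBayes, arrayWeights and leaving out each array. Promoters came from RefSeq on GRCm38.p6. Precision is limited by 3 arrays per group. The fits were run in R 4.3.3 with limma 3.58.1 and statmod 1.5.0. Promoters were searched and figures drawn in Python 3.11.15 with pandas 2.3.3, while numpy 2.4.6 and matplotlib 3.10.9 served the figures.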

Additional observations from a re-analysis of the deposited data

How the results depend on the processing

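All 12 fast-fibre probe sets kept a negative difference in every setting in which they were tested. The 5 calls became 12 with bacterial control scaling, 11 with arrayWeights, which gives less weight to arrays that fit poorly, and 3 with robust eBayes. Leaving out 1 array at a time gave 2 to 12 calls, a median difference of -2.16 to -1.02, 941 to 1641 calls over all tested probe sets (lowest when wild type pool 3 was left out), and 25 to 48 changed genes in the other lists. With bacterial control scaling 3584 probe sets were called over all, 3408 of them lower, and 64 of the 91 genes in the other lists changed, against 36. Atp2a1 98126_s_at and Pvalb 96719_i_at kept their calls in all 16 other settings, Tnnt3 in 15, Pygm in 11 and Myh4 in 9. The causes of these shifts were not tested. No paired analysis was possible because the labels give no numbers shared by the groups.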

Other observations

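Brown fat markers varied between pools in another way than the fast-fibre genes. Ucp1, the uncoupling protein of brown fat, had signals of 145.3, 215.8 and 961.5 in LH transgenic pools 1, 2 and 3, against 167.1, 1248 and 3954 in wild type pools 1, 2 and 3, and was not called (adjusted p = 0.295 by limma). LH transgenic pool 3 was thus the brightest of its group for Ucp1 as for the fast-fibre genes, but wild type pool 1 had little Ucp1 signal and full fast-fibre signal. Of the 4 tested brown fat markers 1 fell, Cox8b (log2 -0.95, adjusted p = 0.0255), and none rose. That call depended on single arrays: without LH transgenic pool 3 none was called lower and 1 was called higher, and none was called in either direction without LH transgenic pool 1, wild type pool 2 or wild type pool 3, or with no brightness filter. Without wild type pool 1, 2 were called lower. With arrayWeights 1 was called in each direction. Cidea, a lipid droplet protein of brown fat and mammary epithelium, had 7323, 7015 and 2828 in LH transgenic pools, against 2682, 2669 and 4923 in wild type pools.

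Of 2 tested nerve and Schwann cell markers Pmp22, a myelin protein also made by other cells, fell (log2 -1.40, adjusted p = 0.000592), with similar values in the 3 LH transgenic pools (2295, 1644 and 2368, against 5497, 5990 and 5370 in wild type pools). Of 6 smooth muscle and myoepithelial markers Acta2 rose (9.93% of all tested genes did) and none fell (11.6% did). On the scale of the bacterial controls none rose and 1 fell, where 3408 of all 7453 tested probe sets were called lower. None of the 2 tested epidermis markers and none of the 2 tested heart markers was called, with smallest adjusted p of 0.332 (Lor) and 0.218 (Nppa) by limma.

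Outside the muscle lists, several genes were brightest in LH transgenic pool 3 and lower in every wild type pool. Runx1, a transcription factor, had 602.4, 341.0 and 1784 in LH transgenic pools, against 205.7, 317.6 and 174.2 in wild type pools. Peg3, an imprinted zinc finger gene, had 1035, 1073 and 2249 in LH transgenic pools, against 287.3, 823.4 and 553.2 in wild type pools. Arg1, arginase, had 1155, 713.5 and 3782 in LH transgenic pools, against 1267, 1247 and 1567 in wild type pools. These genes were chosen after their values were seen, and no difference between single pools was tested.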
